A study of Rattus norvegicus with 24 samples.

Results

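The seed family of microRNA (miRNA) miR-16 on the rat array comprises rno-miR-16, rno-miR-15b, rno-miR-195, rno-miR-497 and rno-miR-322, written below without the species prefix. Its members were followed in peripheral blood mononuclear cells (PBMC) of female Wistar rats, a mixture of lymphocytes and monocytes separated from blood on a density gradient. Members were chosen by name, as the 5 of the 677 miRNAs of a one-colour Agilent rat array that carry exactly these names. There were 24 arrays, 2 in each of 12 groups, with RNA from a different blood collection on each. Collagen-induced arthritis (CIA) models rheumatoid arthritis and starts with immunisation against bovine type II collagen. CIA and healthy (NOCIA) animals were sampled before therapy, and NOCIA animals also at 1 hour and 34 days. Arthritic animals of 4 arms were sampled at 1 hour and 34 days. MS animals had mechanical stimulation with a subcutaneous needle, MTX animals methotrexate and PLA animals its saline placebo, both injected into the peritoneum. ANE animals had no therapy, and isoflurane took the place of ether at their blood sampling. The labels name these groups AP for MS, NORA for NOCIA and RA for CIA. Animals were killed at sampling, so the time points come from different animals. Their ages are not given in the sources used here. For NOCIA at 34 days a line of the label names 1 hour, while its title and another line name 34 days, which was used.

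A miRNA is a short RNA that guides a repressor complex to messenger RNAs, mostly through its seed, bases 2 to 8 counted from the 5′ end. miRNAs with one seed share many predicted targets. This family is known for repressing genes of the cell cycle, such as cyclins, and the survival gene Bcl2. In blood, miR-16 is an abundant miRNA of red as well as white cells. miR-322 is the rodent counterpart of human miR-424.

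The mature sequences show why these 5 miRNAs form a family and where they part. They are the 5′ arms of RefSeq (build GRCr8), written 5′ to 3′ with the seed in capitals:
miR-16: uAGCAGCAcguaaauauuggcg
miR-15b: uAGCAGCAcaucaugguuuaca
miR-195: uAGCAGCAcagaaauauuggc
miR-497: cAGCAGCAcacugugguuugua
miR-322: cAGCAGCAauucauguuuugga
All 5 matched by name, and no other of the 724 mature entries of the reference holds this seed. Outside the seed the sequences differ widely. miR-16 and miR-195 are the closest pair, with 19 of 21 aligned bases the same, although their genes lie on different chromosomes. miR-16 and its genomic neighbour miR-15b have 14 of 22 bases in common, and miR-195 and its neighbour miR-497 have 12 of 21.

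The genes lie in 3 places of GRCr8. miR-15b (chr2:155555197-155555218) and miR-16 (chr2:155555343-155555364) are on the plus strand within Smc4, which encodes a condensin subunit. miR-497 (chr10:55450172-55450193) and miR-195 (chr10:55450509-55450529) are also on the plus strand, and no annotated gene of the reference other than their own overlaps them. miR-322 (chrX:137726198-137726219) is on the minus strand within the uncharacterised gene LOC102550366. Its surroundings within 10 kb hold 5 further miRNA genes, Mir503, Mir351, Mir542, Mir450a1 and Mir450b-1.

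Each array gave a total intensity per miRNA, here scaled between arrays and expressed in log2 units, and limma with Benjamini-Hochberg adjustment over 210 miRNAs called a difference at an adjusted p under 0.05. The arrays detected 145 to 207 miRNAs, and their summed intensity ran from 137544 to 519917, with MS at 34 days, replicate 1, the brightest. The arrays lay on 3 slides of 8, each holding 4 whole groups, and each slide was scanned at one time. The slide and scan cannot be told apart from the group in 9 of the 19 comparisons, and the other 10 lay within a slide. The miRNAs known from all leukocytes, miR-142-3p and miR-142-5p, were detected on all 24 arrays, and the liver miRNA miR-122 on 9. The sources used here do not say how many animals gave a sample, so p-values measure the spread between these samples.

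All 5 members were detected on all 24 arrays, each by 2 probes of 10 spots, and no spot was saturated. The signal behind them differed. Every spot of miR-16, miR-15b and miR-322 was well above background. For miR-195 this held for 84.2% of 480 spots, and for miR-497 for 72.9%. The median spot signal of miR-497 was as low as 17.4 intensity units on one array. Levels of different miRNAs were not set against each other, since probes differ in brightness.

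Within its own scale, miR-497 varied most. Its SD over the 24 arrays was 0.65 log2 units, rank 114 of the 132 miRNAs detected on all arrays, counted from the least variable. The SDs of miR-15b, miR-16, miR-195 and miR-322 were 0.22, 0.25, 0.25 and 0.29, at ranks 33, 45, 47 and 61. Between replicates of a group the pooled SD of miR-497 was 0.53, and that of miR-15b was 0.16. A difference between group means of miR-497 therefore had a standard error (SE) of 0.51, against 0.17 for miR-15b.

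**Figure D1:**
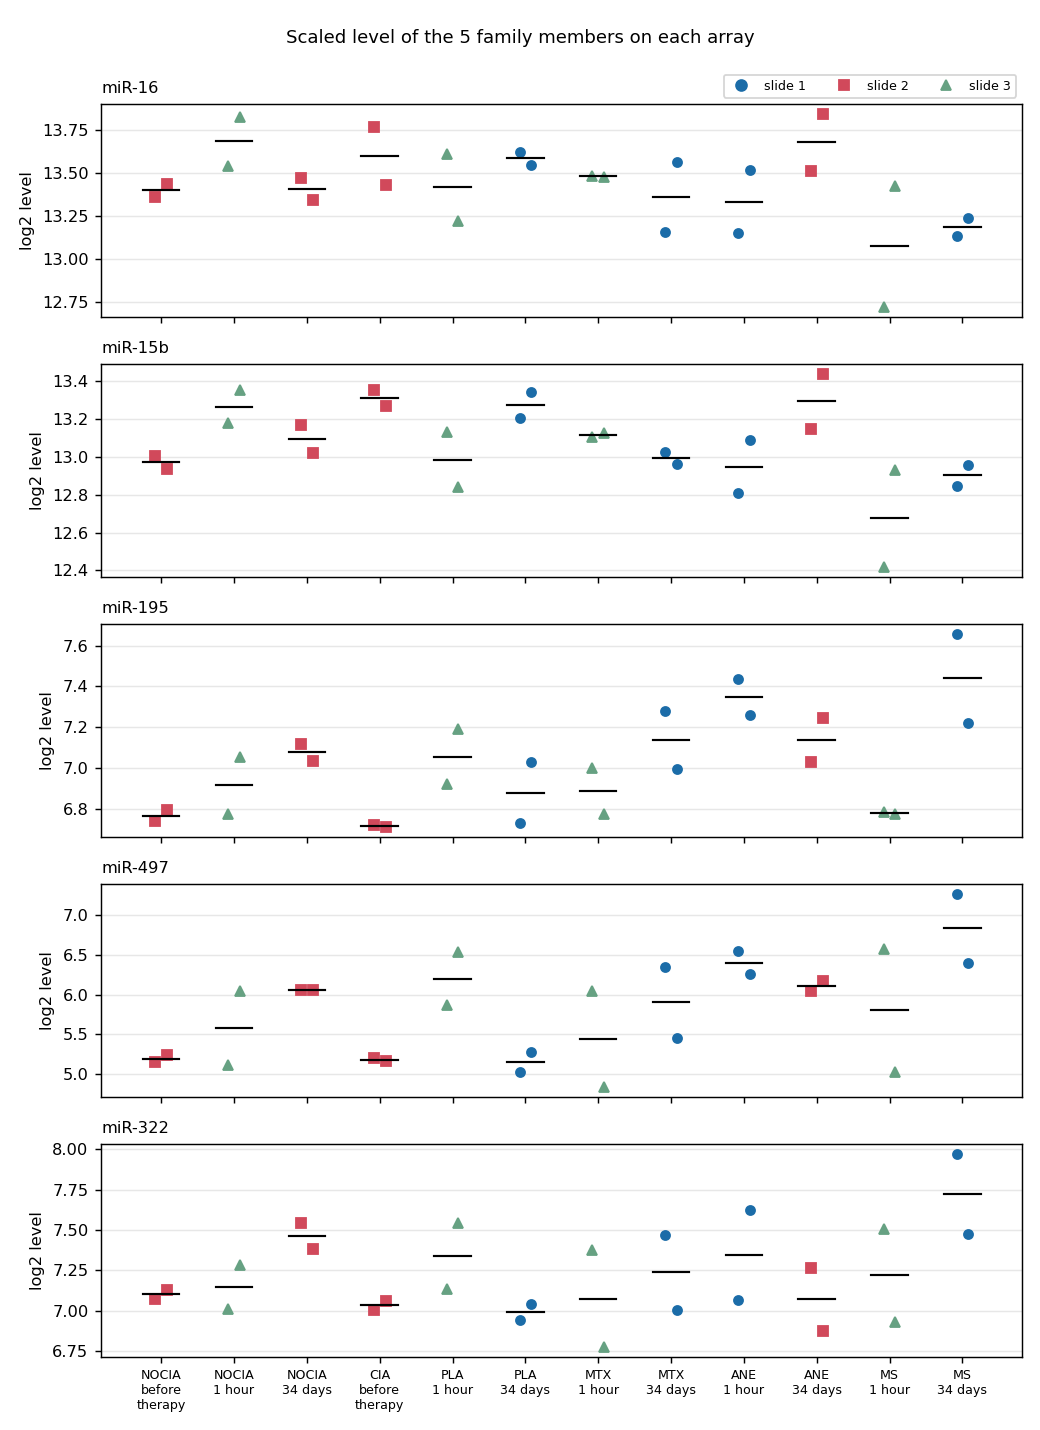
Scaled log2 level (vertical axis, a scale of its own for each panel) of each member on the 24 arrays, by group (horizontal axis); points are arrays, their shape and colour the slide, and black lines group means. MS at 34 days has the highest mean of miR-195 (7.44), miR-497 (6.84) and miR-322 (7.72) and the second lowest of miR-16 (13.18) and miR-15b (12.90).

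The pair from chromosome 2 is described first. Before therapy, miR-16 measured 13.36 and 13.44 in the NOCIA arrays and 13.76 and 13.43 in the CIA arrays. In NOCIA animals it was 13.54 and 13.83 at 1 hour and 13.47 and 13.34 at 34 days. In PLA animals it was 13.61 and 13.22 at 1 hour and 13.62 and 13.55 at 34 days. The healthy, arthritic and placebo arrays thus overlapped. In MTX animals the levels were 13.48 and 13.48 at 1 hour and 13.16 and 13.56 at 34 days. In ANE animals they were 13.15 and 13.52 at 1 hour and 13.51 and 13.84 at 34 days. In MS animals they were 12.72 and 13.42 at 1 hour and 13.13 and 13.24 at 34 days. Both MS groups had the lowest means, and the lowest array of all was an MS array at 1 hour. No gap between neighbours in the order of the 12 group means exceeded the SE of a difference, 0.23.

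The same shape was seen for miR-15b. It measured 13.01 and 12.94 in NOCIA and 13.35 and 13.27 in CIA before therapy. In NOCIA animals it was 13.18 and 13.35 at 1 hour and 13.17 and 13.02 at 34 days. In PLA animals it was 13.13 and 12.84 at 1 hour and 13.21 and 13.34 at 34 days. CIA before therapy had the highest mean of the 12 groups, 13.31 ± 0.06 (SD, n = 2). The MTX arrays measured 13.11 and 13.13 at 1 hour and 13.03 and 12.96 at 34 days. The ANE arrays measured 12.81 and 13.09 at 1 hour and 13.15 and 13.44 at 34 days. The MS arrays measured 12.42 and 12.93 at 1 hour and 12.85 and 12.96 at 34 days. The MS means were again the lowest, and the gap of 0.23 above MS at 1 hour was the one neighbouring gap of 11 that exceeded the SE of 0.17.

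Of the chromosome 10 pair, miR-195 measured 6.74 and 6.79 in NOCIA and 6.72 and 6.71 in CIA before therapy. In NOCIA animals it was 6.78 and 7.06 at 1 hour and 7.12 and 7.04 at 34 days. In PLA animals it was 6.92 and 7.19 at 1 hour and 6.73 and 7.03 at 34 days. CIA before therapy thus lay at the bottom of the order, with a mean of 6.72 ± 0.01 (SD, n = 2). The MTX arrays measured 7.0003 and 6.77 at 1 hour and 7.28 and 6.996 at 34 days. The ANE arrays measured 7.44 and 7.26 at 1 hour and 7.03 and 7.24 at 34 days. The MS arrays measured 6.78 and 6.77 at 1 hour and 7.66 and 7.22 at 34 days. MS at 34 days was highest and MS at 1 hour the third lowest, and one neighbouring gap, 0.21 above ANE at 34 days, exceeded the SE of 0.18.

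miR-497 was spread most. It measured 5.15 and 5.25 in NOCIA and 5.20 and 5.16 in CIA before therapy. In NOCIA animals it was 5.11 and 6.04 at 1 hour and 6.06 and 6.07 at 34 days. In PLA animals it was 5.87 and 6.54 at 1 hour and 5.03 and 5.28 at 34 days. All 4 arrays before therapy and both PLA arrays at 34 days lay between 5.03 and 5.28. The MTX arrays measured 6.05 and 4.84 at 1 hour and 6.35 and 5.46 at 34 days. The ANE arrays measured 6.55 and 6.26 at 1 hour and 6.05 and 6.17 at 34 days. The MS arrays measured 6.58 and 5.03 at 1 hour and 7.27 and 6.40 at 34 days. Replicates of MS at 1 hour were 1.54 apart, the widest such gap of this miRNA. No neighbouring gap exceeded the SE.

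miR-322 lay between 6.77 and 7.97. It measured 7.07 and 7.13 in NOCIA and 7.01 and 7.06 in CIA before therapy. In NOCIA animals it was 7.01 and 7.28 at 1 hour and 7.54 and 7.38 at 34 days. In PLA animals it was 7.14 and 7.54 at 1 hour and 6.94 and 7.04 at 34 days. PLA at 34 days and CIA before therapy held the lowest means. The MTX arrays measured 7.37 and 6.77 at 1 hour and 7.47 and 7.01 at 34 days. The ANE arrays measured 7.07 and 7.62 at 1 hour and 7.26 and 6.87 at 34 days. The MS arrays measured 7.51 and 6.93 at 1 hour and 7.97 and 7.47 at 34 days. MS at 34 days was highest, and no neighbouring gap exceeded the SE of 0.28. In a test of any difference among the 12 groups (limma's F test), none of the 5 members was called, with adjusted p from 0.277 to 0.581, against 2.38% of all miRNAs tested. At an unadjusted p under 0.05, miR-195 alone passed.

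Each arm was set against CIA before therapy, a comparison that holds therapy, time and different animals together. In MS at 34 days, miR-195 and miR-497 were higher on the scaled values, though not after normexp background correction. miR-195 was 1.65-fold higher, a log2 difference of 0.72 (SE 0.18, adjusted p = 0.0383). miR-497 was 3.14-fold higher, a difference of 1.65 (SE 0.51, adjusted p = 0.0406). miR-322 showed a difference of 0.69 (SE 0.28) that did not pass (adjusted p = 0.0684). The differences of miR-16, -0.41 (SE 0.23, adjusted p = 0.171), and miR-15b, -0.41 (SE 0.17, adjusted p = 0.0802), were negative and did not pass either. For all 5 members the 2 MS arrays did not overlap with the 2 CIA arrays, as was the case for 68.6% of all 210 miRNAs tested. Members called were thus 2 of 5, while 19.0% of all 210 miRNAs tested were called in this comparison, 33 higher and 7 lower. The members' median difference was 0.69, against 0.16 for all miRNAs tested.

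The calls changed when single arrays were left out. Without replicate 1 of MS at 34 days the differences were 0.51 for miR-195 and 1.22 for miR-497 (adjusted p = 0.464 for both), and no member was called. No member was called without either CIA array, and 3 were called without replicate 2 of MS. The shares of all 210 miRNAs called were 0.0% without replicate 1 of MS, 0.476% and 0.0% without CIA replicate 1 and 2, and 49.0% without replicate 2 of MS. The groups lie on different slides and at different times, so slide, time and therapy cannot be told apart here. No member was called with the 75th percentile over all miRNAs, the median of the always detected miRNAs or quantile normalisation as the scaling, and neither was any other of the 210 miRNAs. Without any scaling between arrays, the differences of miR-16 and miR-15b turned to 0.78 and 0.78, and the median of all miRNAs was 1.32. After normexp background correction those of miR-195 and miR-497 were -0.038 and -0.0084, and the median of all miRNAs was -0.79.

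Within a slide, MS was set against PLA at 34 days. The MS arrays are shared with the comparison against CIA. miR-497 differed by 1.68 (SE 0.51, adjusted p = 0.0622), miR-322 by 0.73 (SE 0.28, adjusted p = 0.0765) and miR-195 by 0.56 (SE 0.18, adjusted p = 0.0622). miR-16 differed by -0.40 (adjusted p = 0.201) and miR-15b by -0.37 (adjusted p = 0.122), and by 0.64 and 0.67 without scaling between arrays. After normexp, miR-195 and miR-497 differed by -0.12 and -0.029. The median of all miRNAs was 0.21 on the scaled values, 1.13 without scaling and -0.83 after normexp. Both MS arrays lay outside both PLA arrays for each member, and so did those of 71.0% of the 210 miRNAs. No member was called, and neither was any other miRNA (0.0% of 210), while 84 of the 210 had an unadjusted p under 0.05, 3 members among them. Without replicate 2 of MS, 3 members were called, miR-195, miR-497 and miR-322, along with 43.3% of all miRNAs.

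Marker miRNAs of the cell types in blood were read on the same arrays, and miR-223 was the one called against CIA, while none was called against PLA. The summed level of the lymphocyte miRNAs miR-150, miR-342-3p and miR-181a was 10.995 and 12.87 in the MS arrays at 34 days. It was 13.75 to 13.87 in CIA before therapy and 13.60 to 13.65 in PLA at 34 days. Of these 3, none was called against CIA, and miR-155, also on the list, was not analysed here. The myeloid list, miR-223 with miR-223*, which was detected on no array, ran from 13.08 to 13.57 in MS, from 12.26 to 12.60 in CIA and from 12.80 to 13.04 in PLA, and miR-223 differed from CIA by 0.89 (SE 0.25, adjusted p = 0.0383). The platelet list, miR-126, miR-126*, miR-199a-3p and again miR-223, summed to 13.10 to 13.60, 12.28 to 12.62 and 12.82 to 13.04 in these groups. That sum is nearly all miR-223. miR-126 itself differed from CIA by 1.17 (SE 0.47, adjusted p = 0.0663), and miR-126* and miR-199a-3p were detected on 2 arrays each. The erythroid miRNAs miR-451, miR-144 and miR-144* summed to 12.20 to 13.11 in MS, 12.09 to 14.74 in CIA and 14.13 to 14.21 in PLA, and none was called. miR-142-3p and miR-142-5p differed from CIA by 0.12 and -0.19 (adjusted p = 0.65 and 0.742). The part of these cells in the members' differences was not tested, and fewer cells of a type and less RNA per cell cannot be told apart in such samples.

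In the other arms at 34 days no member was called against CIA before therapy. MTX differences ran from -0.32 for miR-15b to 0.72 for miR-497, and those of ANE from -0.02 to 0.93, again with miR-497 highest. In PLA all 5 lay within -0.04 and 0.16. The shares of all miRNAs called were 0.0% in each of these arms. MS and MTX at 34 days differed by at most 0.93, for miR-497 (SE 0.51, adjusted p = 0.317). MTX against PLA and ANE against NOCIA at 34 days gave no call among the members either, and none of these 3 comparisons called any miRNA (0.0%).

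**Figure D2:**
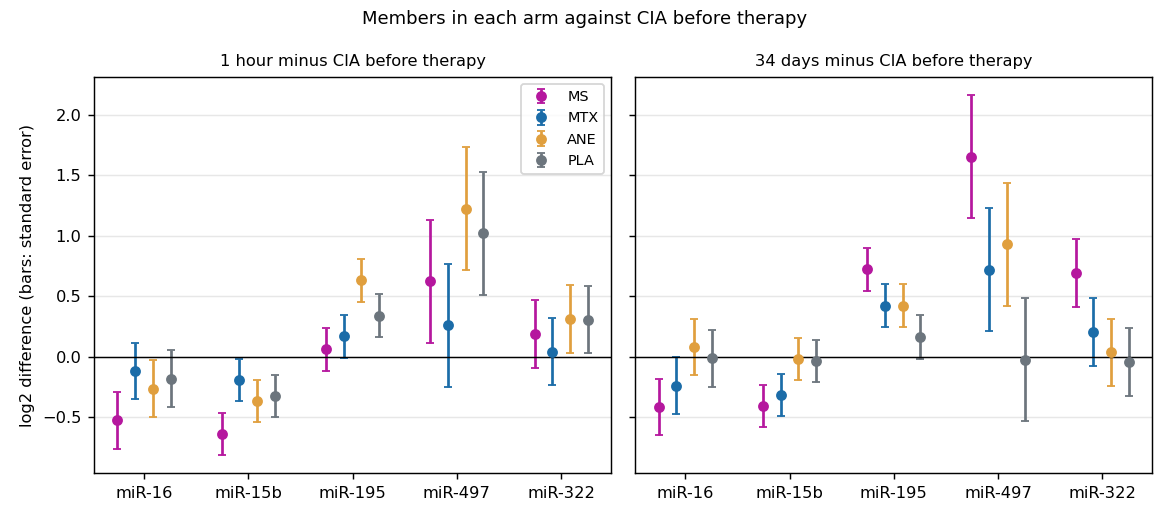
Log2 difference of each member (horizontal axis) from CIA before therapy, at 1 hour (left) and 34 days (right), with bars of 1 standard error and a colour per arm. At 34 days MS shows 0.72 for miR-195 and 1.65 for miR-497, while all 5 points of PLA lie between -0.04 and 0.16.

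At 1 hour no arm had a called member. The lowest adjusted p was that of miR-15b in MS, which differed from CIA by -0.64 (SE 0.17, unadjusted p = 0.00268, adjusted p = 0.166), and miR-16 differed by -0.52 (SE 0.23). Without scaling between arrays the differences were 0.26 and 0.37, so their direction turned. Without replicate 2 of MS at 1 hour, miR-16 and miR-15b were called, along with 16.2% of all miRNAs. In ANE, miR-195 differed by 0.63 (SE 0.18, adjusted p = 0.229) and miR-497 by 1.22 (SE 0.51). In PLA the differences ran from -0.33 for miR-15b to 1.02 for miR-497, and in MTX from -0.19 to 0.26. The background was 0.0% of miRNAs called for MS, 1.43% for MTX, 0.476% for ANE and 0.952% for PLA. Between arms at 1 hour no member was called in MS against PLA (background 0.952%), MTX against PLA or PLA against NOCIA (both 0.0%).

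Disease alone was read from CIA against NOCIA before therapy, within a slide. miR-15b was 0.34 higher in CIA (SE 0.17, adjusted p = 0.714), and the other 4 members differed by -0.07 to 0.20. None was called, against 0.952% of all miRNAs tested. In healthy animals no member was called at 1 hour (background 2.38%) or 34 days (background 0.952%) against NOCIA before therapy. Differences there were 0.01 to 0.86 at 34 days, with miR-497 highest. To ask whether the change over 34 days differed between MS and healthy animals, the changes were subtracted. For miR-497 the change was 1.65 in MS and 0.86 in NOCIA, a difference of 0.79 (SE 0.72, adjusted p = 0.559). None of the 5 members was called in this test (lowest adjusted p = 0.465), against 0.476% of all miRNAs.

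In differences between members on the same array a scale factor common to all miRNAs cancels. A relation to array brightness that differs between members, as described below, does not cancel. Taking miR-16 as the base, the other members' log2 distance to it (member minus miR-16, with its sign) was tested in the same way over 209 miRNAs. From CIA before therapy to MS at 34 days, the distance of miR-15b changed by 0.0041 (SE 0.20, adjusted p = 0.983). Over all 19 comparisons this change stayed between -0.14 and 0.14. By contrast, the distance grew by 2.07 for miR-497 (SE 0.64, adjusted p = 0.0494) and by 1.14 for miR-195 (SE 0.32, adjusted p = 0.0494). For miR-322 it was 1.10 (SE 0.42, adjusted p = 0.0547). Called were 2 of 4 members, against 26.3% of the 209 miRNAs. Without replicate 1 of MS, or without either CIA array, no member was called, and without replicate 2 of MS 3 were called (0.0% of all miRNAs in each of the first 3 cases and 45.5% in the last). After normexp the growth was 0.37 for miR-497 (adjusted p = 0.207) and 0.34 for miR-195 (adjusted p = 0.193), and the calls also ended without a filter on detection or with only the arrays compared. Against PLA at 34 days the changes were 2.08, 0.96 and 1.13 for miR-497, miR-195 and miR-322 (adjusted p = 0.0687 for each), and no miRNA was called (0.0%). For miR-195, the closest relative of miR-16 in sequence, the distance was thus called against CIA, but not against PLA or in the settings just named. For miR-15b, from the same gene cluster, it did not pass the test. How far a probe of one member binds another member was not tested.

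**Figure D3:**
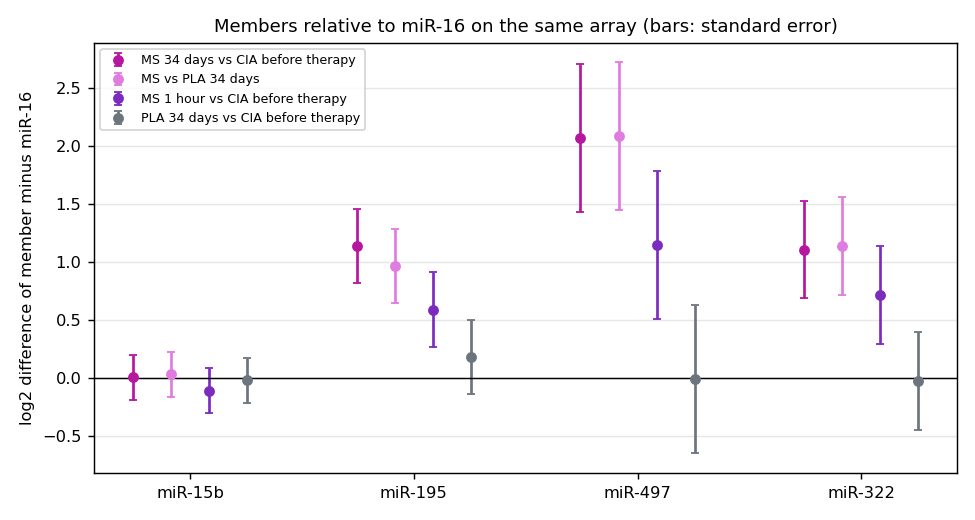
Log2 difference of each member relative to miR-16 on the same array (vertical axis, bars of 1 standard error) in 4 comparisons, by member (horizontal axis). miR-15b stays near 0 in all 4, while miR-497 lies at 2.07 and 2.08 in the MS comparisons at 34 days.

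The 2 probes of a member gave the same direction in the MS comparisons at 34 days. Against CIA, the probes of miR-497 differed by 1.25 (SE 0.43, adjusted p = 0.0526) and 1.25 (SE 0.41, adjusted p = 0.0445). The first alone was thus not called, and both differences were smaller than the 1.65 of the total signal. The reason for this gap was not tested. The probes of miR-322 differed by 0.68 and 0.70, those of miR-16 by -0.33 and -0.45 and those of miR-15b by -0.34 and -0.44. The probes of miR-195 gave 1.45 (SE 0.37) and 0.54 (SE 0.15). Their levels correlated over the arrays at r = 0.78, the lowest of the 5 members, while the others reached 0.95 to 0.98.

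Over the 24 arrays miR-16 with miR-15b, and miR-195, miR-497 and miR-322 with each other, correlated positively under every scaling and signal tried, with r from 0.21 to 0.97. On the scaled values, miR-16 and miR-15b correlated at Pearson r = 0.90 (permutation p = 1e-05, Spearman rho = 0.82, permutation p = 1e-05). miR-195 and miR-497 correlated at r = 0.84 (permutation p = 1e-05, rho = 0.83, p = 1e-05). miR-322, from another chromosome, correlated with miR-497 at r = 0.82 (permutation p = 1e-05, rho = 0.75, p = 3e-05) and with miR-195 at r = 0.64 (permutation p = 0.00078, rho = 0.59, p = 0.00304). The value 1e-05 is the smallest that 100000 resamples can give. Without the 2 arrays farthest from the median of the first-named member, r was 0.80, 0.77, 0.72 and 0.60 in the same order (for miR-322 the other member came first). Within slides 1, 2 and 3, r was 0.74, 0.85 and 0.98 for miR-16 with miR-15b and 0.97, 0.97 and 0.65 for miR-195 with miR-497. It was 0.83, 0.43 and 0.98 for miR-497 with miR-322 and 0.77, 0.30 and 0.66 for miR-195 with miR-322.

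Between these sets the sign depended on the scaling. On the scaled values all 6 pairs were negative, from -0.16 for miR-15b with miR-195 to -0.52 for miR-16 with miR-322 (permutation p = 0.00892, rho = -0.52, p = 0.00959). Over the 10 pairs, 8 had an adjusted p under 0.05. The 6 were all positive without scaling between arrays (0.85 to 0.89) and with the 75th percentile over all miRNAs (0.05 to 0.67), and 5 of 6 were positive after normexp (-0.05 to 0.37). On slide 2, miR-16 with miR-195 had r = 0.30 and miR-16 with miR-497 r = 0.19. After slide means were subtracted, 5 pairs were called. Arrays share groups, so these are not independent of the group differences above. With group means removed, r was 0.83 for miR-16 with miR-15b, 0.72 for miR-195 with miR-497 and 0.78 for miR-497 with miR-322.

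The scaled levels of the members were related to the brightness of the array. With log2 of the summed intensity, r was 0.83 for miR-497 (permutation p = 1e-05, rho = 0.81, p = 2e-05), 0.82 for miR-322 (permutation p = 1e-05, rho = 0.74, p = 6e-05) and 0.66 for miR-195 (permutation p = 0.00047, rho = 0.64, p = 0.00098). It was -0.61 for miR-16 (permutation p = 0.00231, rho = -0.47, p = 0.0227) and -0.52 for miR-15b (permutation p = 0.0103, rho = -0.45, p = 0.0284). All 5 had an adjusted p of at most 0.0103 over these 5 relations. Leaving out the 2 arrays farthest from the median intensity gave 0.77, 0.72, 0.72, -0.39 and -0.26 in that order. Within slides 1, 2 and 3, r was 0.85, 0.83 and 0.79 for miR-497 and 0.95, 0.58 and 0.76 for miR-322. It was 0.77, 0.67 and 0.09 for miR-195, -0.68, 0.03 and -0.81 for miR-16 and -0.53, 0.17 and -0.85 for miR-15b. Such relations were common on these arrays: 72.0% of the 132 miRNAs detected throughout had an r of at least 0.5 in size, and the median was 0.36. The MS arrays at 34 days were among the brightest, with summed intensities of 519917 and 305171, against 167322 and 163860 in CIA before therapy. The part of brightness in the differences was not tested. This relation was chosen after the values were seen.

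**Figure D4:**
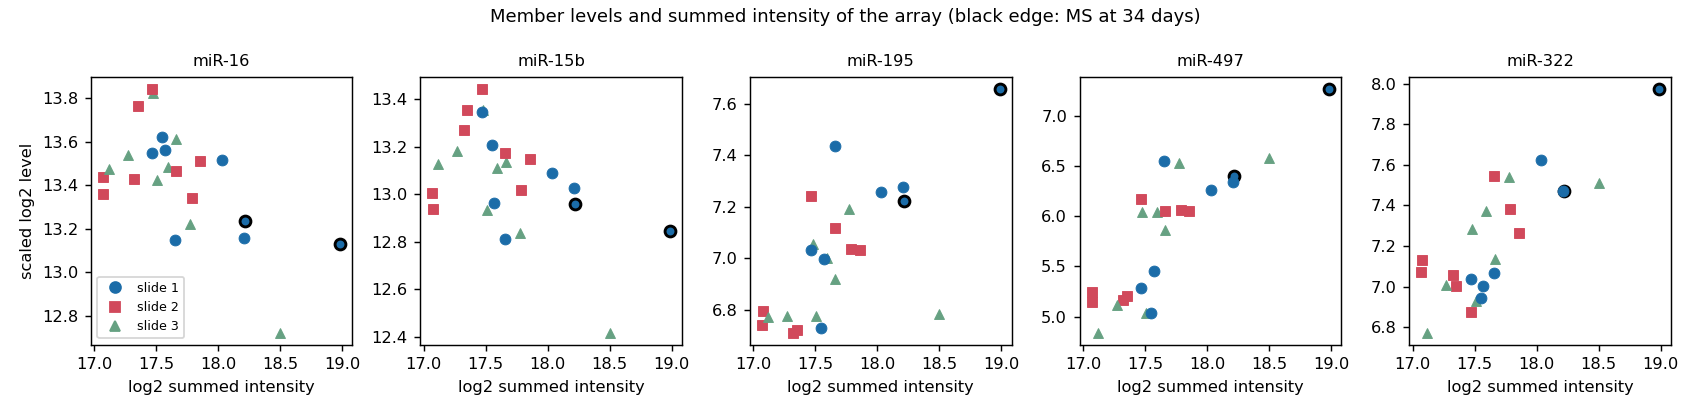
Scaled log2 level of each member (vertical axis) against log2 summed intensity of the array (horizontal axis), with slide by shape and colour and the MS arrays at 34 days edged in black. miR-497 and miR-322 rise along the axis (r = 0.83 and 0.82) and miR-16 falls (r = -0.61).

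The profiles most like each member were named by Pearson r over the 24 arrays, among the other 127 miRNAs detected on all of them. For miR-16 they were miR-25 (r = 0.97), miR-362* (0.87) and miR-378 (0.87). For miR-15b they were again miR-25 (0.90), then miR-30e* (0.89) and miR-361 (0.86). None of these 5 miRNAs was called between MS at 34 days and CIA. For miR-195 they were miR-350 (0.86), miR-340-3p (0.85) and miR-872 (0.84). For miR-497 they were miR-331 (0.93), miR-17-1-3p (0.92) and miR-20a (0.91). For miR-322 they were miR-450a (0.91), which comes from the same stretch of the X chromosome, miR-181d (0.89) and miR-20a (0.89). Of the miRNAs near these 3 members, miR-872, miR-17-1-3p, miR-20a and miR-181d were called higher in MS at 34 days than in CIA. miR-350, miR-340-3p, miR-331 and miR-450a were not called. In that comparison 19.0% of all 210 miRNAs tested were called, 33 of them higher. These profiles were picked over the same arrays, so their calls are not independent of the members' differences.

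Partner strands and cluster neighbours of the members were scarcer. Of 12 such miRNAs on the array, miR-450a was detected on all 24 arrays and miR-15b* on 23. miR-503, which neighbours miR-322, was detected on 13, and miR-542-3p on 10. The partner strands miR-16*, miR-195* and miR-497* were detected on no array, nor were miR-351, miR-503* and miR-450a*. The 6 that could be tested gave no call in any of the 19 comparisons. Between MS at 34 days and CIA, the 5 tested from the X chromosome differed by 0.44 to 1.51, among them miR-450a by 0.81 (SE 0.31, adjusted p = 0.0596). Of these 5, miR-450a alone was detected on all 24 arrays. miR-542-5p, with the difference of 0.44, was detected on 3 arrays and miR-322*, with 0.62, on 4, and undetected values carry no level. miR-15b* differed by -0.31 (SE 0.28, adjusted p = 0.392). The family relatives miR-15a and miR-424 were not analysed here.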

How the data were processed

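Per the labels, PBMC RNA was labelled with Cy3 and hybridised to one-colour arrays. The deposited scanner files hold linear intensity values, background-corrected by Agilent Feature Extraction (10.7.3.1 in the file headers, 10.7 in the submitters' processing notes) and not normalised between arrays. The software's total gene signal and detection flag were used. The authors also deposited a log2 value table of the same arrays, whose normalisation and centring are not stated there (the submitters' processing notes name RMA). This table served as an alternative only.

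Total signals were scaled to a common 75th percentile over the 132 miRNAs detected on all 24 arrays (factors 0.452 to 1.42), set to a floor of 5.76 and log2-transformed. The 12046 undetected values all equal the listed error and carry no level. No member lay at the floor. The 210 miRNAs detected on at least 3 arrays entered one limma 3.58.1 fit (R 4.3.3, lmFit and eBayes, 12 group means, 12 residual degrees of freedom), as the study's methods used limma. Tests are two-sided, with Benjamini-Hochberg adjustment over 210 miRNAs (209 against miR-16). The fit was also run on simulated data with independent noise for each miRNA. Such data hold no shift shared by the miRNAs of an array, so they cannot show how the calls behave under one. Correlations used 100000 resamples (Python 3.11.15, numpy 2.4.6). With 2 arrays a group, the number of arrays limits the precision, and an exact test of a single miRNA cannot reach 0.05. Named were the 5 members, for each the 3 nearest profiles among miRNAs detected throughout, and listed relatives by count. Members, lists and tests were chosen with earlier results of these data known. Alternatives covered scaling, signal, filter, floor, samples in the fit, replicate block, threshold, single probes and each array left out.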

Additional observations from a re-analysis of the deposited data

How the results depend on the processing

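A percent in parentheses is the share of all miRNAs called in the same fit. For the study's threshold that share is not given, and the number of miRNAs passing its p at any fold stands in its place. The count of members called between MS at 34 days and CIA before therapy, 2 in the report, was 5 without scaling (62.9%). It was 1 after normexp correction (72.4%), a member other than miR-195 and miR-497. With the study's threshold (more than 2-fold, and p under 0.05 before adjustment) it was 1. It was 0 with the 75th percentile over all miRNAs, the median over the always detected miRNAs, quantile normalisation, no filter on detection, or only the arrays compared in the fit (0.0% in each). Leaving out 1 array gave 0 to 3. Against miR-16 it was 0 after normexp (45.5%), without the filter (0.0%) or with only the arrays compared (2.39%), and leaving out 1 array gave 0 to 3. Between MS and PLA at 34 days the count, 0 in the report, was 3 without scaling (59.0%) or without the filter (60.9%), 2 with only the miRNAs detected on all arrays (27.3%) and 1 with the study's threshold, and leaving out 1 array gave 0 to 3. Against miR-16 it was 3 with only the miRNAs detected on all arrays (32.8%), and leaving out 1 array gave 0 to 3.

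One member was called with the study's threshold in ANE at 1 hour, with only the slide's arrays in ANE at 34 days (1.9%), with only the arrays compared (4.76%) or only the slide's arrays (3.33%) in NOCIA at 34 days, and without the filter in the F test (52.9%). In MS at 1 hour, leaving out 1 array gave 0 to 2. Correlated pairs, 8 in the report, numbered 2 after normexp, 4 in the authors' log2 table and 5 with slide means subtracted, and leaving out 1 array gave 5 to 8. Without scaling, the 6 pairs between the sets turned positive.

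Without scaling, the differences reversed for miR-16 and miR-15b, to 0.78 and 0.78 against CIA, to 0.64 and 0.67 against PLA, to 0.37 and 0.26 for MS at 1 hour against CIA and to 0.19 and 0.079 for the change of MS minus NOCIA. The median of all miRNAs against CIA was then 1.32, and -0.79 after normexp, against 0.16 in the report. Against PLA that median was 1.13 without scaling and -0.83 after normexp, against 0.21 in the report. After normexp, miR-195 and miR-497 reversed to -0.038 and -0.0084 against CIA and to -0.12 and -0.029 against PLA. That correction adds an offset of 50 to every spot, and the median spot signal of miR-497 was between 17.4 and 243 on the arrays. With the 75th percentile over all miRNAs, the change of MS minus NOCIA reversed to -0.055 for miR-195 and -0.14 for miR-322. The cause was not tested for any of these changes.

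Replicate numbers were not treated as pairing the samples. Of 66 pairs of groups, the deviations of replicate 1 correlated over 0.1 in 26 (r from -0.77 to 0.84). With large correlations of either sign, this check cannot decide whether the numbers pair samples. With the replicate block, 2 members were called between MS at 34 days and CIA (29.0%), with adjusted p = 0.0333 for miR-195 and 0.0371 for miR-497. Against miR-16, 3 were called (39.2%), where miR-322 had an adjusted p of 0.0469. No other count changed under the block. Over all alternatives, 419 counts of members or pairs stayed within 1.5 times their value and 34 did not. Most comparisons called no member, and a count of 0 that stayed 0 is among the 419. The tally therefore does not measure how stable the 2 calls between MS at 34 days and CIA were, which many settings changed. Precision was limited by 2 arrays a group and, for miR-497 and miR-195, by spots near background.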
